A study of Mus musculus with 15 samples.

Results

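The genes of the IL-33, IL-1 and IL-18 axis are 9 of the 53465 genes in the table of normalized counts, and they were taken by name. They comprise 3 cytokines (Il33, Il1b and Il18), the receptor antagonist Il1rn and 5 receptor chains (Il1rl1, Il1r1, Il1r2, Il1rap and Il18r1). All 9 passed the minimum mean of 5 normalized counts over all libraries that 25549 genes passed. RNA was sequenced from endovascular progenitor (EVP), transit amplifying (TA) and definitive differentiated (D) cells, with 5 libraries each. All 3 populations were sorted as GFP positive, lineage negative, CD34 positive cells on day 15 from tumors of B16-F0 cells, a line of mouse melanoma, in CAG-GFP mice. In these mice GFP is driven ubiquitously, so that it marks every host cell and not a cell type. EVP cells were low for CD31 and VEGFR2, TA cells were intermediate for CD31 and low for VEGFR2, and D cells were high for both. The study used mice of both sexes between 8 and 14 weeks of age, and neither the labels nor the methods give the animals behind each library, so that p-values measure the spread between libraries.

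IL-33 is a cytokine of the IL-1 family that is stored in the nucleus and released from damaged cells. It binds ST2, the product of Il1rl1, which signals together with the accessory protein encoded by Il1rap. IL-1β uses the same accessory protein with the type 1 receptor, encoded by Il1r1, while the product of Il1r2 is a decoy that binds IL-1 without signaling and that of Il1rn is an antagonist that occupies the type 1 receptor. IL-18 binds the product of Il18r1, and both IL-1β and IL-18 are made as precursors that caspase-1 cleaves. Endothelial, fibroblastic and epithelial cells are known sources of IL-33, and mast cells and some lymphocytes are known carriers of ST2.

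The sequences before the starts of Il33 and Il1rl1 are shown because these genes differed most between populations, and that of Il1b because its levels were ordered differently. Each line gives the 250 bases before a RefSeq transcript start (build GRCm38.p6), written 5′ to 3′ on the gene's strand, with capitals where the letters TATAAA (the TATA box), the letters GATAA (the GATA factor form) or the letters TGANTCA (the AP-1 form) are found on either strand.
Il33, the first start, chr19:29924863-29925112, plus strand: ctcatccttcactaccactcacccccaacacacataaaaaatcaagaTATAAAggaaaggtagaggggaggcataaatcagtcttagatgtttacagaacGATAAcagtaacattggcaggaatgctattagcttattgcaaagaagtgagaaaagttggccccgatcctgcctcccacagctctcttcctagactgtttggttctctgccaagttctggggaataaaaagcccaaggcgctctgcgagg
Il33, the second start, chr19:29945540-29945789, plus strand: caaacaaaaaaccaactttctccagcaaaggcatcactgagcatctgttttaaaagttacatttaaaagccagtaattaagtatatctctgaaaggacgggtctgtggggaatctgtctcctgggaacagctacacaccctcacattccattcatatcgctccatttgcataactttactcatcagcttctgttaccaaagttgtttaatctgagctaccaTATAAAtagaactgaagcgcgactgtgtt
Il1rl1, the first start, chr1:40429320-40429569, plus strand: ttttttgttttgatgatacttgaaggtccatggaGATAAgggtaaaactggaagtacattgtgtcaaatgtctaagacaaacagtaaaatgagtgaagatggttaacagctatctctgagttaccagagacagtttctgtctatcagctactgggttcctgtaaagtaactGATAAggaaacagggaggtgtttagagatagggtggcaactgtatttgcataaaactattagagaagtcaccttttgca
Il1rl1, the second start, chr1:40439379-40439628, plus strand: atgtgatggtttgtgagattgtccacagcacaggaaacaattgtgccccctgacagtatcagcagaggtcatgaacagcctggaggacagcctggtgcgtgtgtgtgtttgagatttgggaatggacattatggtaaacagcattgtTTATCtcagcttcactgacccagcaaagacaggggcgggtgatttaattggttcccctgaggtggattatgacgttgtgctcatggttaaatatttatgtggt
Il1b, chr2:129371140-129371389, minus strand: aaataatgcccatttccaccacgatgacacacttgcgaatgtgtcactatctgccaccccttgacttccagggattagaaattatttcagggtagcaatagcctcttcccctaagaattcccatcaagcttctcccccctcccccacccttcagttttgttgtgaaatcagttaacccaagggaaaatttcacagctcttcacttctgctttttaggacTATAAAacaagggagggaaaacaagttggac

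TATAAA began at position -29 from the second start of Il33, at -31 from that of Il1b and at -203 from the first start of Il33. These letters occurred in 12.4% of the 32817 windows of this length before mouse transcript starts. GATAA was found in both windows of Il1rl1, at -216 and -79 from the first start and at -103 from the second, and in 22.6% of all windows. The first start of Il33 held GATAA at -150. The AP-1 form, present in 6.75% of all windows, was in none of these 5. Over the 16 windows of the 9 genes, TATAAA was found in 4, GATAA in 4 and the AP-1 form in 1, that of Il1rn. The counts per gene do not separate the transcripts of the 2 starts, and for Il1rl1 they do not separate the soluble from the membrane form of ST2.

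Several properties of the libraries touched these genes. The reads on genes numbered 5394356 to 26513073 a library, and 3 reads, the limit used for detection, equalled 1.81 to 10.5 normalized counts. Such limits cover counting error only. In the replicate 1 libraries between 81.6% and 98.3% of the 1106 olfactory receptor genes had a read, against 2.89% to 71.0% in the other libraries. Of 10 endothelial markers, 9 were lower in EVP than in D, against 7.46% of all genes. The other, Tek, did not pass and had the highest mean of the list in EVP, 1578 normalized counts. The sum of all 10 markers was 2385 to 4279 normalized counts in EVP, 5979 to 72865 in TA and 103119 to 163172 in D. Pecam1 (CD31) lay between 119 and 613 in EVP and between 19114 and 32189 in D, and Kdr (VEGFR2) between 94.1 and 712 and between 15216 and 26252, respectively. The sort used both proteins.

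Of the 9 genes, 6 were higher in EVP than in D and 3 did not pass the test (limma on log2(normalized count + 1), adjusted p under 0.05). Of all genes tested, 11.6% were called higher in EVP, 7.46% higher in D and 19.0% in either direction. For 5 of the 9, all EVP libraries lay above all D libraries, as for 10.2% of all genes (17.7% in either direction). The median log2 fold change of the 9 genes was 3.35 beside 0.46 over all genes tested. Between TA and D, 7 of the 9 genes were higher in TA, where 8.21% of all genes were higher in TA and 4.31% in D (12.5% in either direction), with a median of 2.58 beside 0.24. For 6 of the 9, all TA libraries lay above all D libraries, as for 5.56% of all genes (9.25% in either direction). A single gene, Il1r1, differed between EVP and TA, where 1.56% of all genes were called higher in EVP, 1.94% higher in TA and 3.50% in either direction. The medians in that comparison were 1.33 and 0.09. Quantile normalization moved the median of all genes to -0.05 between EVP and D and to -0.10 between TA and D, and all changes given here are read beside these shifts. It also lowered the share of called genes that were higher in EVP than in D from 60.8% to 49.2%. Scaling the libraries to the same total lowered that share between EVP and TA from 44.6% to 24.9%. In bulk samples fewer cells of a type and less RNA per cell cannot be told apart.

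**Figure D1:**
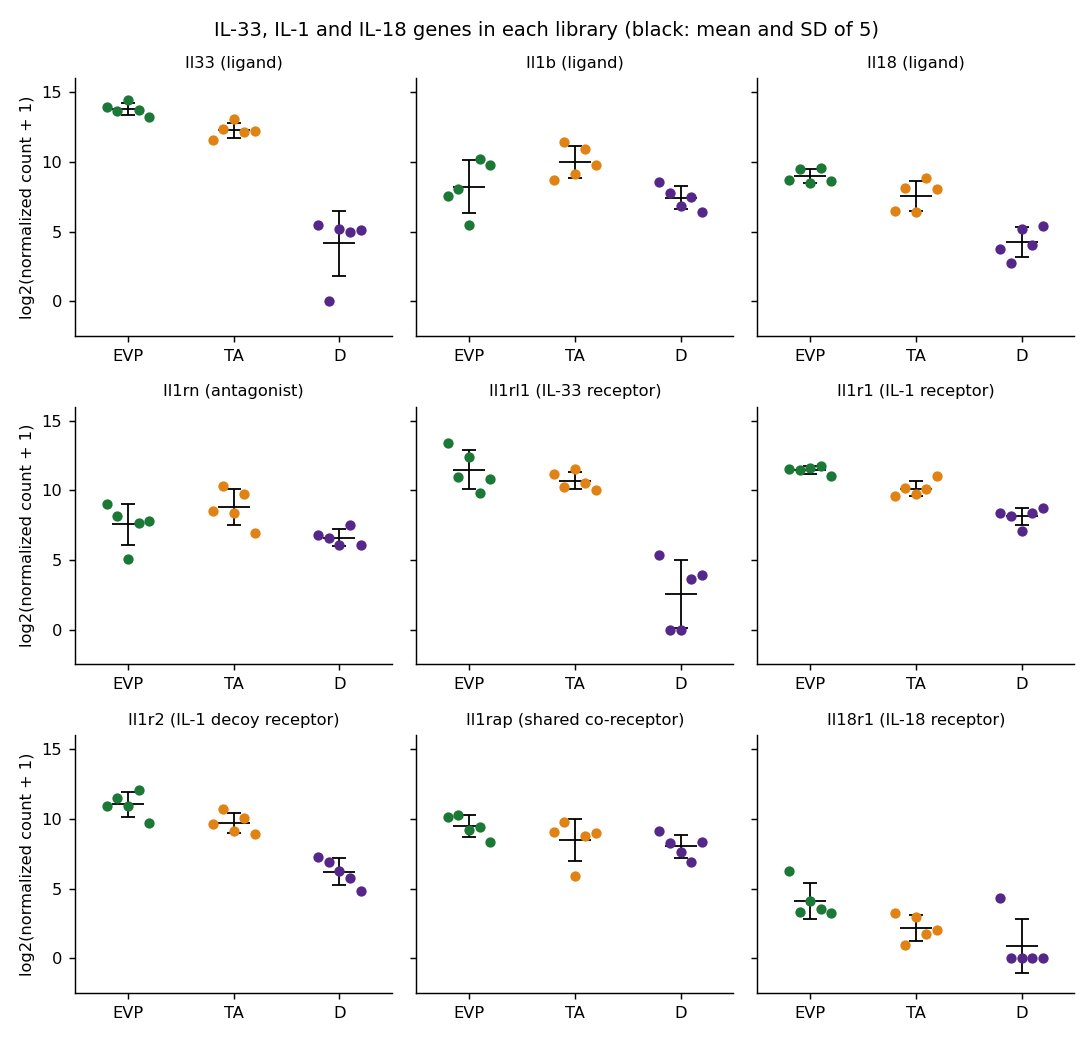
Log2(normalized count + 1) of the 9 genes in each library of EVP, TA and D (points, 5 per population), with the mean and SD in black. Il33, Il1rl1, Il1r1, Il1r2 and Il18 lay higher in every EVP and TA library than in any D library, while Il1b and Il1rn had their highest means in TA.

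Il33 (chromosome 19, 29925114 to 29960718) was the most abundant of the cytokines in EVP and TA. Its normalized counts in replicates 1 to 5 were 15867, 13239, 22162, 13279 and 9523 in EVP, 3058, 5266, 8680.0, 4569 and 4854 in TA, and 43.9, 0, 35.2, 30.0 and 34.4 in D. Every EVP library lay above every TA library, and every TA library above every D library. The highest and lowest EVP libraries differed 2.33-fold. Ranked by log2 fold change, Il33 was number 33 of 25549 genes for EVP against D (9.65, SE 0.76, adjusted p = 6.5e-08) and number 27 for TA against D (8.13, SE 0.76, adjusted p = 1.2e-06). Between EVP and TA the log2 fold change was 1.51 (SE 0.76), which did not pass the test (adjusted p = 0.362) although the libraries did not overlap, as for 2.70% of genes tested in this direction and 4.29% in either. This fit estimated 1 spread over the 3 populations, and the SD on the log2 scale was 2.33 in D, where replicate 2 had no read, against 0.44 in EVP and 0.54 in TA. Without D replicate 2 the adjusted p was 0.00633, and in a fit of EVP and TA alone it was 0.0171, with the same fold change of 1.51 in both. It also passed with a pseudocount of 8 (0.0499) and with DESeq2 on whole reads (0.0313). In D replicate 1 the 43.9 normalized counts of Il33 were below the 95th percentile of olfactory receptor genes in that library, 70.0.

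Il18 (chromosome 9, 50554827 to 50581840), the other cytokine that was higher in EVP than in D, was expressed at much lower counts. It reached 418, 724, 357, 773 and 402 normalized counts in EVP replicates 1 to 5, 87.9, 281, 82.6, 453 and 263 in TA and 12.4, 5.71, 35.2, 15.8 and 41.1 in D. EVP and TA libraries overlapped, and both lay above all D libraries. In TA replicate 1 the 87.9 normalized counts of Il18 were below the 95th percentile of olfactory receptor genes in that library, 105. In D replicate 1 the 12.4 normalized counts of Il18 equalled the median of olfactory receptor genes. The log2 fold change was 4.76 (SE 0.55, adjusted p = 4.6e-06) between EVP and D and 3.35 (SE 0.55, adjusted p = 4.8e-04) between TA and D. At 1.41 (SE 0.55, adjusted p = 0.196) the difference between EVP and TA did not pass the test. The protein-coding genes Bco2 and Tex12 lie over Il18 on the other strand and share none of its exon bases.

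Il1b (chromosome 2, 129364570 to 129371139), which encodes IL-1β, had its highest mean in TA. Counts were 183, 261, 43.4, 1195 and 894 in EVP replicates 1 to 5, 410.2, 2759, 556, 1953 and 889 in TA and 371, 219, 114, 179.5 and 84.0 in D. EVP libraries spread 27.6-fold and overlapped with both other populations, whereas all TA libraries lay above all D libraries. In EVP replicate 1 the 183 normalized counts of Il1b were below the 95th percentile of olfactory receptor genes in that library, 371. Il1b was higher in TA than in D by a log2 fold change of 2.58 (SE 0.75, adjusted p = 0.0303). This call was lost without TA replicate 2 (adjusted p = 0.0821) or 4 (0.0738) and without D replicate 3 (0.0730), 4 (0.0595) or 5 (0.0845), with log2 fold changes of 2.22 to 2.91 over all libraries left out. It was also lost with no minimum mean (adjusted p = 0.0501) and with quantile normalization (0.0628). The log2 fold change of EVP against D was 0.80 (SE 0.75, adjusted p = 0.60) and that of EVP against TA -1.78 (SE 0.75, adjusted p = 0.248). Il1b shares 25 exon bases with the antisense gene Il1bos, which had at most 37.9 normalized counts.

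Il1rn (chromosome 2, 24336853 to 24351494), the antagonist of the type 1 receptor, was also highest on average in TA. Its values were 530.2, 291, 32.7, 199 and 225 normalized counts in EVP replicates 1 to 5, 365, 1252, 333, 855 and 124 in TA and 111, 94.7, 68.0, 180.3 and 65.9 in D. All 3 populations overlapped, and the same TA libraries, replicates 2 and 4, were the highest for Il1rn and for Il1b. TA exceeded D by a log2 fold change of 2.17 (SE 0.66, adjusted p = 0.0393). This call was not kept without TA replicate 1, 2, 3 or 4 or without D replicate 1, 2, 3 or 5 (adjusted p between 0.0501 and 0.105). Nor was it kept with no minimum mean (0.0650), with array weights (0.0542), with quantile normalization (0.0904) and without replicate 1 of all populations (0.0875). The difference between EVP and D was 0.94 (SE 0.66, adjusted p = 0.428) and that between EVP and TA -1.22 (SE 0.66, adjusted p = 0.413).

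Among the receptors, Il1rl1 (chromosome 1, 40429570 to 40465415) differed most. It was counted at 10705, 1986, 5383, 922 and 1765 in EVP replicates 1 to 5, 2337, 1225, 2987, 1446 and 1060.5 in TA and 39.8, 0, 0, 11.3 and 13.9 in D. Replicates 1 and 3 of EVP stood above the rest, EVP overlapped with TA, and all 5 D libraries were below both. The EVP libraries spread 11.6-fold, against 1.67-fold for Il1r1. The log2 fold change was 8.90 (SE 0.90, adjusted p = 1.1e-06) between EVP and D and 8.14 (SE 0.90, adjusted p = 8.8e-06) between TA and D, rank 66 and rank 26 of 25549 genes. Between EVP and TA it was 0.77 (SE 0.90, adjusted p = 0.836). The ratio of mean counts of EVP to TA was 2.29 with all libraries and 1.50 without replicate 1 of each population, and that of EVP to D was 319 and 400, respectively. In D replicate 1 the 39.8 normalized counts of Il1rl1 were, like those of Il33, below the 95th percentile of olfactory receptor genes.

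Il1r1 (chromosome 1, 40225080 to 40317257), the signaling receptor of IL-1, varied least among EVP libraries. Normalized counts of 3030.1, 2820.5, 3156, 3438 and 2061 were found in EVP replicates 1 to 5, 779, 1130.5, 873, 1109 and 2111 in TA and 325, 283, 134, 332 and 416 in D. Apart from TA replicate 5, which was just above EVP replicate 5, the populations were separate and stood in the order EVP, TA and D. The log2 fold changes were 3.35 (SE 0.30, adjusted p = 2.7e-07) between EVP and D, 2.00 (SE 0.30, adjusted p = 2.0e-04) between TA and D and 1.35 (SE 0.30, adjusted p = 0.0178) between EVP and TA. The last call was lost without EVP replicate 3 (adjusted p = 0.0522), TA replicate 1 (0.0501) or TA replicate 3 (0.0510), with edgeR on whole reads (0.0524), with array weights (0.0884) and without replicate 1 of all populations (0.138).

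Il1r2 (chromosome 1, 40074079 to 40125231), the decoy receptor, showed the same order with a wider spread. Its counts were 1959, 2967, 1949, 4327 and 839 in EVP replicates 1 to 5, 808, 1663, 564, 1092 and 493 in TA and 149.6, 118, 76.6, 54.1 and 27.2 in D. EVP replicate 4 was highest, EVP and TA overlapped, and every D library was lower than all others. EVP against D gave a log2 fold change of 4.84 (SE 0.48, adjusted p = 8.7e-07), TA against D 3.51 (SE 0.48, adjusted p = 8.7e-05) and EVP against TA 1.33 (SE 0.48, adjusted p = 0.158), which passed with DESeq2 on whole reads (0.0362).

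The decoy was set beside the signaling receptor as the log2 ratio of Il1r2 to Il1r1 within each library. Counts were not divided by exon length, which is 1908 bases for Il1r2 and 6363 for Il1r1. The sign of a ratio thus does not tell which gene was more abundant, and the ratio serves to compare populations only. The ratio was -0.63, 0.07, -0.70, 0.33 and -1.30 in EVP replicates 1 to 5, 0.05, 0.56, -0.63, -0.02 and -2.10 in TA and -1.12, -1.25, -0.80, -2.60 and -3.89 in D. Replicate 5 was the lowest of each population, and EVP and D overlapped through EVP replicate 5. EVP exceeded D by 1.49 on this scale (exact permutation test, two-sided, p = 0.0476, adjusted over the 3 comparisons 0.119). TA exceeded D by 1.50 (exact permutation p = 0.0794, adjusted 0.119), and EVP and TA differed by -0.02 (exact permutation p = 0.984). None passed after adjustment, where the smallest p of 5 libraries against 5 is 0.00794.

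Il1rap (chromosome 16, 26581704 to 26730117), the accessory chain shared by the receptors of IL-1 and IL-33, had reads in every library. Values were 1141, 1258, 589, 675 and 317 normalized counts in EVP replicates 1 to 5, 524, 870.3, 58.0, 442 and 509 in TA and 551, 314, 194, 120.2 and 319 in D. All populations overlapped, and TA replicate 3 was far below the other TA libraries. Its 58.0 normalized counts were below the 95th percentile of olfactory receptor genes in that library, 60.3. The log2 fold changes were 1.42 (SE 0.60, adjusted p = 0.124) between EVP and D, 0.98 (SE 0.60, adjusted p = 0.504) between EVP and TA and 0.44 (SE 0.60, adjusted p = 0.756) between TA and D. The difference between EVP and D passed without TA replicate 3 (adjusted p = 0.0202), with array weights (0.0174), in a fit of EVP and D alone (0.0297) and with DESeq2 on whole reads (0.0494). The antisense gene Gm20319 shares 552 exon bases with Il1rap and had at most 6.89 normalized counts in a library.

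Il18r1 (chromosome 1, 40465552 to 40500854), the binding chain of the IL-18 receptor, was close to the limit of detection. It had 77.2, 9.14, 16.4, 10.4 and 8.30 normalized counts in EVP replicates 1 to 5, 8.62, 0.879, 6.70, 2.35 and 3.11 in TA and 19.2, 0, 0, 0 and 0 in D. The highest value of each population was that of replicate 1, and in EVP replicate 1 it was below the median of olfactory receptor genes, 87.8. The difference between EVP and D passed the test (log2 fold change 3.23, SE 0.98, adjusted p = 0.0263) with overlapping libraries. It did not pass with edgeR (adjusted p = 0.326), with DESeq2 (0.202), without EVP replicate 1 (0.0599) or 3 (0.0521) and without D replicate 2, 3, 4 or 5 (0.0646 to 0.0684). Nor did it pass with no minimum mean (0.0626) or with a pseudocount of 8 (0.0941), where the log2 fold change was 1.32. EVP against TA gave 1.91 (SE 0.98, adjusted p = 0.373) and TA against D 1.31 (SE 0.98, adjusted p = 0.499), of which the latter passed without replicate 1 of all populations (1.91, adjusted p = 0.0147).

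**Figure D2:**
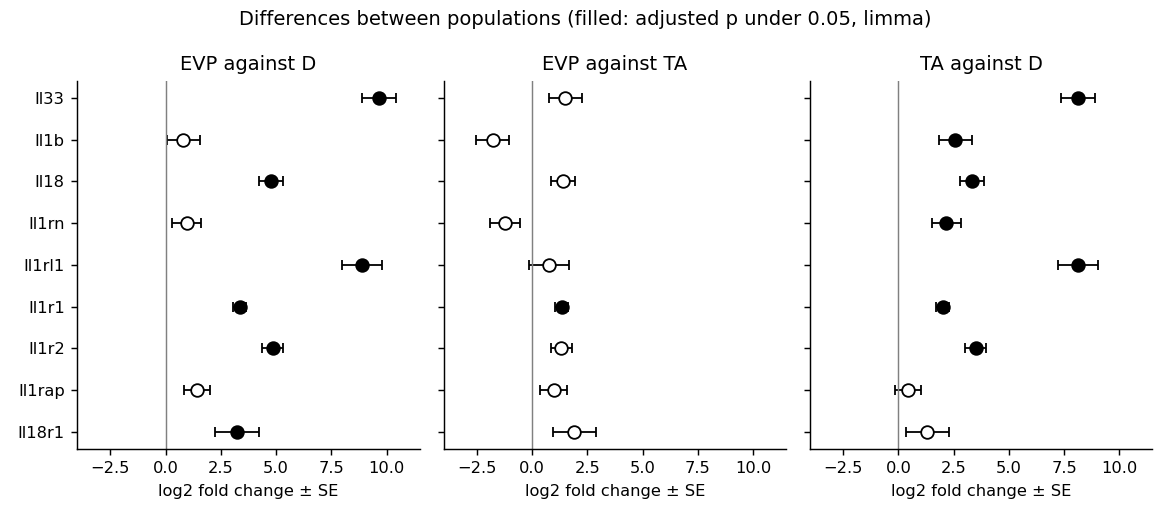
Log2 fold changes of the 9 genes with their SE (horizontal axis) for EVP against D, EVP against TA and TA against D, filled where the adjusted p was under 0.05. Il33 and Il1rl1 lay between 8.13 and 9.65 in both comparisons with D, and Il1b and Il1rn lay on the side of TA between EVP and TA.

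The position of TA between EVP and D differed from gene to gene. On a scale of mean log2 values where EVP is 0 and D is 1, TA lay at 0.086 for Il1rl1, 0.157 for Il33, 0.275 for Il1r2, 0.297 for Il18, 0.402 for Il1r1, 0.593 for Il18r1 and 0.689 for Il1rap. TA was thus closer to EVP than to D for 5 of these 7 genes and closer to D for Il18r1 and Il1rap. The value of Il1rap rested on TA replicate 3, which lay at 2.52, while the other TA libraries lay between -0.21 and 0.48, closer to EVP. Il1b and Il1rn lay outside this scale, since their means in TA were above those in EVP. These positions share the EVP and D libraries and were not tested.

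Genes were also set side by side per kb of exon. The length used was the union of all annotated exons, not that of the transcripts present, which limits the order given here. Il33 came first in EVP (5133 ± 1625 normalized counts per kb, SD, n = 5). It was followed by Il1r2 (1262), Il1rl1 (602), Il18 (518), Il1r1 (456), Il1b (270.2), Il1rap (70.1), Il1rn (46.2) and Il18r1 (5.04). The ranges of Il33 and Il1r2 did not overlap, whereas all other neighbors in this order did. The order in TA was Il33 (1831), Il1b (689), Il1r2 (484), Il1rl1 (263), Il18 (227), Il1r1 (189), Il1rn (106), Il1rap (42.3) and Il18r1 (0.899), and the ranges of neighbors overlapped except between Il1rap and Il18r1. In D, Il1b came first (101) before Il1r1 (46.9), Il1r2 (44.6), Il1rap (26.4), Il18 (21.4), Il1rn (18.8), Il33 (9.95), Il1rl1 (1.89) and Il18r1 (0.798), and all neighbors overlapped.

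**Figure D3:**
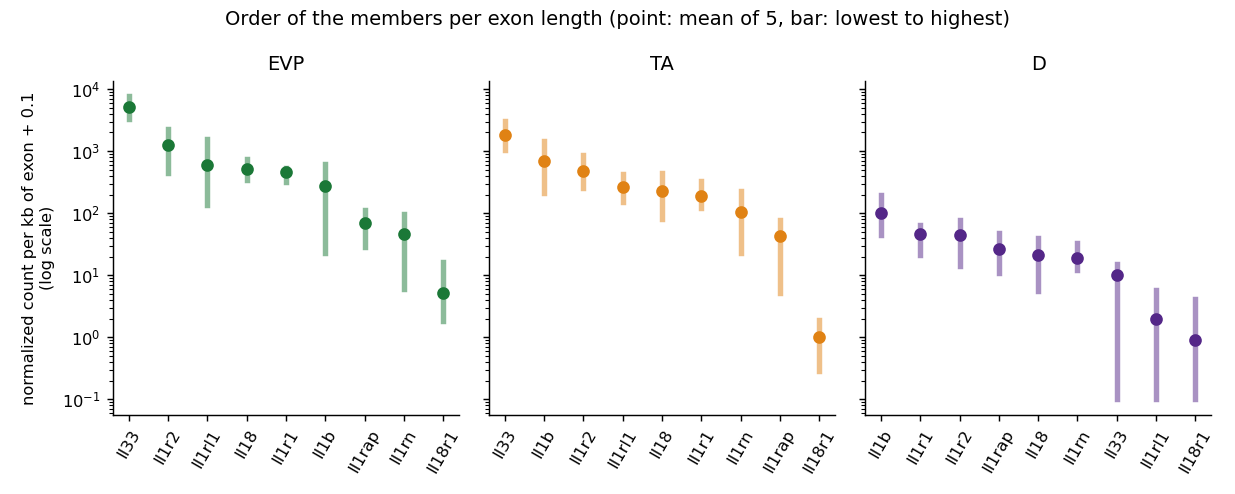
Normalized counts per kb of exon, plus 0.1, on a log scale for the 9 genes in descending order within EVP, TA and D (points are means of 5 libraries, bars run from the lowest to the highest library). Il33 came first in EVP and TA and was number 7 in D, where Il1b came first.

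Of these receptors, 4 are encoded in a stretch of 478 kb on chromosome 1 (40074079 to 40551705), which holds Il1r2, Il1r1, Il1rl2, Il1rl1, Il18r1 and Il18rap in this order on GRCm38. Il1rl2, which encodes the receptor of IL-36, had 2352, 3676, 3208, 3543 and 1878 normalized counts in EVP replicates 1 to 5, 271, 1017, 1215, 819.6 and 1476 in TA and 280.1, 98.0, 113, 187 and 248 in D. All EVP libraries lay above all others, and TA replicate 1 was below D replicate 1. The gene was higher in EVP than in D (log2 fold change 4.05, SE 0.40, adjusted p = 9.7e-07), in EVP than in TA (1.77, SE 0.40, adjusted p = 0.0212) and in TA than in D (2.29, SE 0.40, adjusted p = 9.7e-04). Il18rap, the accessory chain of the IL-18 receptor, averaged 55.5 ± 30.9 normalized counts for EVP, 83.7 ± 88.6 for TA and 14.9 ± 15.7 for D (SD, n = 5 each), and its log2 fold changes against D of 2.75 (EVP, adjusted p = 0.0574) and 2.84 (TA, adjusted p = 0.0652) did not pass. In EVP replicate 1 the 105 normalized counts of Il18rap were below the 95th percentile of olfactory receptor genes in that library, 371. Il18r1 starts 136 bases after the end of Il1rl1 on the same strand. Mean counts of these neighbors in EVP were 24.3 and 4152.

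**Figure D4:**
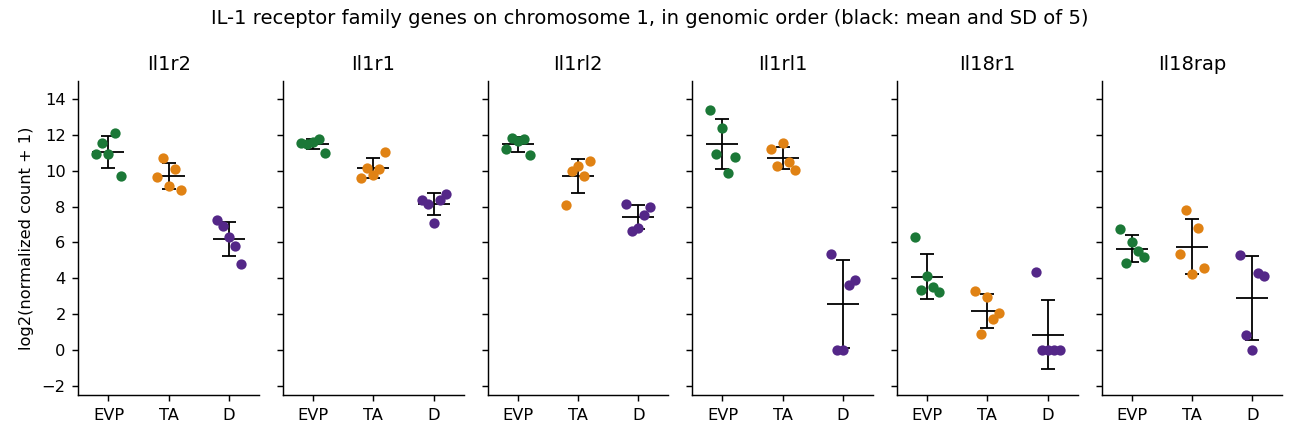
Log2(normalized count + 1) of the 6 IL-1 receptor family genes of chromosome 1, from left to right in genomic order, in each EVP, TA and D library (points), with the mean and SD of 5 in black. Il1r2, Il1r1, Il1rl2 and Il1rl1 had at least 839 normalized counts in every EVP library, while Il18r1 and Il18rap reached at most 77.2 and 105 there.

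Other genes of the pathway were read from a list of 69, of which 67 were tested. Between EVP and D, 27 were higher in EVP, 5 were higher in D and 35 did not pass, so that 47.8% were called, against 19.0% of all genes tested, and the median log2 fold change was 0.90 beside 0.46. Between TA and D, 19 were higher in TA and 3 in D, 32.8% against 12.5% of all genes (median 0.80 beside 0.24). EVP and TA differed in 9, of which 7 were higher in EVP, 13.4% against 3.50% of all genes (median 0.33 beside 0.09). That count was 2 without EVP replicate 3, 4 without EVP replicate 2, TA replicate 1 or TA replicate 3, and 5 without EVP replicate 4. Without replicate 1 of all populations it was 1.

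Of the 5 groups of this list, the genes that IL-1 is known to induce in stromal or endothelial cells had the largest share called in both comparisons with D. The share was 85.7% for EVP and 71.4% for TA, against 19.0% and 12.5% of all genes. Between EVP and TA it was 14.3%, against 3.50% of all genes, and not the largest. Of the 21 genes of this group, 16 were higher in EVP than in D, 2 were lower and 3 did not pass (median log2 fold change 3.95), and 13 were higher in TA than in D. Of all genes, 11.6% were higher in EVP than in D and 8.21% in TA than in D. The fibroblast markers, described below, were called in 100% in both comparisons with D. Whether IL-1 induced the genes of this group was not tested. Mmp3, a matrix protease, changed most, with 12575 to 58832 normalized counts in EVP, 6794 to 21719 in TA and 0 to 192 in D (log2 fold change between EVP and D 10.40, SE 1.14, adjusted p = 2.6e-06). Saa3, an acute-phase protein, lay between 11778 and 64872 in EVP, 3234 and 34636 in TA and 16.3 and 71.8 in D (9.08, SE 0.58, adjusted p = 4.8e-09). The neutrophil-attracting chemokine Cxcl5 differed by 8.70 (SE 0.73, adjusted p = 1.4e-07) and the cytokine Lif by 7.32 (SE 0.96, adjusted p = 2.0e-05). The genes higher in D were the leukocyte adhesion molecules of endothelium Selp (log2 fold change -4.95) and Sele (-2.64). Between EVP and TA, Il6 (1.52), Ccl2 (1.20) and Ccl7 (1.12) were the members that passed, all higher in EVP.

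Among the adaptors and NF-kB genes, 4 of 22 were higher in EVP than in D and 1 was lower, a share of 22.7% that was near the 19.0% of all genes tested. Irak3, a brake on receptor signaling, differed by a log2 fold change of 2.49 (SE 0.37, adjusted p = 6.5e-05), Nfkbiz, a nuclear NF-kB cofactor, by 2.37 (SE 0.30, adjusted p = 1.2e-05) and Tnfaip3, an inhibitor of NF-kB, by 1.69 (SE 0.38, adjusted p = 0.00326). Irak2, a kinase of the receptor complex, was lower in EVP (-1.18, SE 0.33, adjusted p = 0.0160). Irak3 and Nfkbiz were also higher in EVP than in TA (1.74 and 1.12). Myd88, the adaptor of the signaling receptors of IL-1, IL-18 and IL-33, differed by 0.70 on the log2 scale for EVP against D (SE 0.24, adjusted p = 0.0512).

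Sigirr, a receptor of this family that restrains signaling, went in the other direction. It had 169, 10.5, 94.9, 171 and 143 normalized counts in EVP replicates 1 to 5, 381, 439.5, 1068, 548 and 189.9 in TA and 791, 999, 1482, 1059 and 1143 in D. All EVP libraries were below all TA and D libraries, and TA replicate 3 reached into the range of D. The log2 fold change was -3.65 between EVP and D (SE 0.61, adjusted p = 2.4e-04) and -2.40 between EVP and TA (SE 0.61, adjusted p = 0.0370). With Il1rl2 higher and Sigirr lower in EVP than in D, 2 of the 6 other receptors and inhibitors passed, 33.3% against 19.0% of all genes. Il18bp, the soluble inhibitor of IL-18, did not pass (0.22, SE 0.70, adjusted p = 0.876). Of the 5 other ligands tested, Il1a and the genes of the IL-36 group, limma called 0 in each comparison. At an unadjusted p under 0.05 it found 0 between EVP and D, 1 between EVP and TA and 0 between TA and D, edgeR called 0 in each, and DESeq2 called 1 between EVP and TA and 0 in the others. Il1a lay between 0.818 and 74.5 in EVP, 24.3 and 558 in TA and 32.0 and 266 in D.

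Of 13 inflammasome genes and cytokine-cleaving proteases tested, 6 were higher in EVP than in D and 1 was lower, 53.8% against 19.0% of all genes. Cma1 and Mcpt4, the proteases with the largest changes (log2 fold change 6.85 and 5.14, adjusted p = 0.00691 and 0.0278), are granule enzymes of mast cells and stood also in the mast cell list. Casp4 (1.79, SE 0.28, adjusted p = 1.4e-04), an inflammatory caspase, and Pycard (1.79, SE 0.31, adjusted p = 3.8e-04), the inflammasome adaptor, followed. Casp1, which cleaves both precursors, was higher in EVP by 1.76 (SE 0.41, adjusted p = 0.00415), and Casp8, an apoptotic caspase, was lower (-1.74, SE 0.19, adjusted p = 3.0e-06).

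Markers of other cell types moved together with several of the 9 genes, and their part in the results was not tested. All 8 fibroblast markers were higher in EVP and in TA than in D (against 11.6% and 8.21% of all genes). Their sum, led by Col1a1, was 542944 to 851373 normalized counts in EVP, 122447 to 373976 in TA and 714 to 2867 in D, the same order of populations as Il33. Of 8 mast cell markers, 6 were higher in EVP than in D and 8 in TA than in D (against 11.6% and 8.21% of all genes). The sum of this list, in which Cpa3 and Cma1 had the highest means, was 103 to 16611 in EVP, 4458 to 103719 in TA and 108 to 649.8 in D, and Cpa3 had no read in D replicates 2 and 3. In EVP replicate 5, where the sum was 103 and Cpa3 stood at 1.38, Il1rl1 was counted at 1765. EVP replicate 1 had the highest Il1rl1 (10705) at a sum of 1264, and EVP replicate 4 the lowest of EVP (922) at 16611. In TA, replicate 5 had both the lowest sum (4458) and the lowest Il1rl1 (1060.5).

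Beside Il1b and Il1rn stood the markers of myeloid and epithelial cells. Of 9 macrophage markers, led by Lyz2, 6 were higher in TA than in EVP, where 1.94% of all genes were called higher in TA. In that comparison edgeR called 0 of them and DESeq2 called 7. Between TA and D, 1 was higher in TA, 11.1% against 8.21% of all genes. The sums of these markers were 1985 to 11909.6 in EVP, 8042 to 40212 in TA and 3905 to 13032 in D. Of 6 neutrophil markers tested limma called 0 in each comparison (1 at an unadjusted p under 0.05, between TA and D, where edgeR called 0 and DESeq2 2), and their sum was 73.6 to 729 in EVP, 171 to 4828 in TA and 81.1 to 475 in D. All 6 keratinocyte markers were higher in TA than in D (against 8.21% of all genes), and their sum was 1023 to 5992 in EVP, 1088 to 69097 in TA and 64.1 to 1873 in D. TA replicate 2, which had the highest Il1b and Il1rn, also had the highest neutrophil and keratinocyte sums, and TA replicate 4, which came next for both genes, had the highest macrophage sum. The lists did not all follow these genes. TA replicate 2 had a macrophage sum of 12942, and TA replicate 4 had the lowest keratinocyte sum of TA (1088) and a neutrophil sum of 477. D replicate 5 had the highest macrophage sum of D (13032) and the lowest Il1b (84.0) and Il1rn (65.9) of D. The 5 general leukocyte markers summed to 931 to 6688 in EVP, 2118 to 19756 in TA and 822 to 1864 in D. Of these, 4 were higher in TA than in D, 80% against 8.21% of all genes. Of the other lists, 2 of 9 T, NK and innate lymphoid markers tested were higher in EVP than in D and 0 were lower. This was 22.2%, against 11.6% of all genes called higher in EVP and 19.0% in either direction, and edgeR called 0. The sums of this list were 325 to 1057, 528 to 3549 and 36.0 to 465 in EVP, TA and D. Mural markers summed to 5114 to 28407, 5412 to 144406 and 5006 to 10729. They were called between EVP and D in 4 of 7, of which 2 were higher in EVP (57.1%, against 19.0% of all genes). Between TA and D, 4 mural markers were higher in TA and 0 in D (57.1%, against 12.5% of all genes). Melanoma markers were found in every library (29081 to 66775, 68613 to 174772 and 18013 to 47596). Of these markers, 5 of 5 were higher in TA than in D, against 8.21% of all genes. Between EVP and D 0 were called by limma (3 at an unadjusted p under 0.05, 0 with edgeR, 1 with DESeq2).

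**Figure D5:**
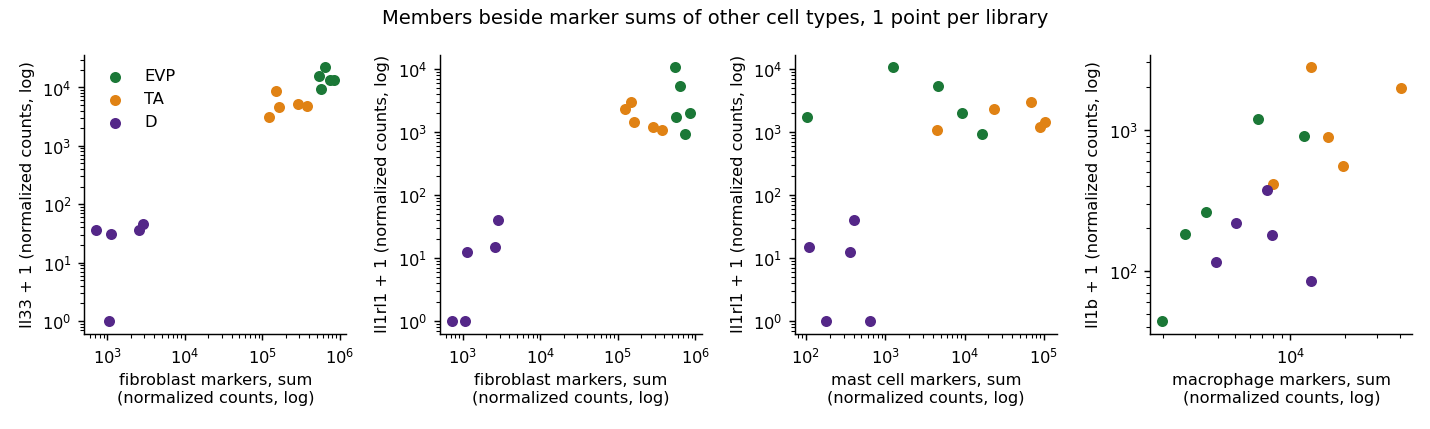
Normalized counts of Il33, Il1rl1 and Il1b plus 1 (vertical axes) against the summed normalized counts of fibroblast, mast cell or macrophage markers (horizontal axes), on log scales with 1 point per library. D libraries lie apart at fibroblast sums of 714 to 2867, and EVP replicate 5 joins a mast cell sum of 103 with 1765 counts of Il1rl1.

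The genes whose log2 values were most like those of Il33 over the 15 libraries were Prrx1 (Pearson r = 0.990), Fgf7 (0.990), Fat1 (0.988), Mmp23 (0.987) and Sod3 (0.987). Over the 10 EVP and TA libraries alone r lay between 0.723 (Fat1) and 0.873 (Fgf7). Most like Il1rl1 were Tnfaip6 (0.976), Cxcl13 (0.971), Mgst2 (0.968), Gpm6b (0.965) and Cd44 (0.963), with r between 0.198 (Gpm6b) and 0.633 (Cxcl13) over EVP and TA. Il33 and Il1rl1 themselves were related with r = 0.953 over all libraries and 0.517 over EVP and TA. These are descriptions over libraries that share their populations and differ in depth. Each of the 10 genes listed had a higher mean in EVP than in TA and in TA than in D, for example 5910.0, 2361 and 38.6 normalized counts for Prrx1 and 6955, 1612 and 18.5 for Tnfaip6. The 10 were picked for likeness to Il33 and Il1rl1, whose means have this order, so the order is no separate observation.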

How the data were processed

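RNA sequencing of 15 libraries was analysed, 5 for each of the EVP, TA and D populations of B16-F0 tumors. The authors amplified total RNA with a modified Smart-Seq2 protocol and Nextera XT, which do not mark the strand, aligned to mm10 (GRCm38, Ensembl release 91) by means of STAR 2.5.3a, used HTSeq-count 0.6.1 for the counts per gene and DESeq2 1.10.1 to normalize them. The table deposited by the authors thus holds a signal, the count of a gene divided by the size factor of its library. Divided by the smallest value above 0 in its library, 100% of the values were whole within 0.01, so that whole reads were recovered. The tables of the authors' own comparisons, which hold fold changes and p-values, were not used.

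Populations were compared on log2(normalized count + 1) over 25549 genes whose mean reached 5 (limma 3.58.1 with a trend, R 4.3.3, two-sided, all 15 libraries, Benjamini-Hochberg adjustment over all genes tested). This test was used in place of the authors' DESeq2 test because the table holds normalized values, and edgeR 4.0.16 and DESeq2 1.42.0 were run on the whole reads as alternatives. Fold changes on this scale understate the change of genes with low counts. The log2 ratio of Il1r2 to Il1r1 was compared with exact permutation tests. Coordinates of genes are those of the deposited table, exon lengths are the union of exons in GENCODE M21, and sequences are from RefSeq, where all 9 genes matched. The limma, edgeR and DESeq2 fits were tested on simulated data of independent libraries, and the permutation test was not part of that simulation.

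The members, lists and tests were chosen with earlier results of these data known. Named are all 9 members, the other receptor genes of their cluster on chromosome 1, at most 4 called genes per pathway group with the largest change between EVP and D, the 5 genes most like Il33 and Il1rl1, Pecam1, Kdr and the markers with the highest means. Sele, Il6, Ccl2, Ccl7, Myd88, Casp1, Casp8, Selp, Il18bp, Il1a and Tek, and Cpa3 at 0, were named after their values were seen. Marker lists covered endothelial, fibroblast, mural, leukocyte, macrophage, neutrophil, mast, T, NK and innate lymphoid, keratinocyte and melanoma cells. Tried as alternatives were pseudocounts of 0.5 and 8, a minimum mean of 20 or none, scaling to the same total, quantile normalization, array weights, fits of 2 populations, the replicate number as a block, both count tests, each library left out and replicate 1 of all populations left out.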

Additional observations from a re-analysis of the deposited data

Results flagged for a closer look

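In 30 groups of 5 libraries, which covered the 9 genes and the ratio of Il1r2 to Il1r1 in each population, 3 held a library whose gap to its nearest neighbor exceeded 0.71 of the range of the group, the limit for 5 libraries. Chance gives this in about 1 of 20 groups. D replicate 2, with no read of Il33, stood 0.903 of the range below the other D libraries on the log2 scale. For Il1rap, TA replicate 3 (58.0 normalized counts) stood apart from the other TA libraries by 0.749 of the range. D replicate 1 held the only reads of Il18r1 in D, 19.2 normalized counts beside 0 in the other 4 libraries, a gap of 1 of the range.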

How the results depend on the processing

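The 9 genes kept the direction of all 3 comparisons in each alternative that gave a value. Il33, Il1rl1, Il1r1, Il1r2 and Il18 were called between EVP and D, and between TA and D, in all 27 alternatives. Between EVP and D 5 to 7 of the 9 genes were called over all alternatives, and between TA and D 5 to 7. Between EVP and TA the count of 1 became 2 with a pseudocount of 8 and in a fit of the 2 populations alone, 3 with DESeq2, and 0 with array weights, with edgeR and without replicate 1 of all populations, and it was 0 to 2 with each library left out. The 9 pathway genes called in that comparison became 5 without a minimum mean, with array weights and with edgeR and 1 without replicate 1 of all populations, and were 2 to 10 with each library left out. Il18r1 was not tested at a minimum mean of 20. The cause of these changes was not tested.

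Between EVP and TA the log2 ratio of Il1r2 to Il1r1 changed from -0.02 to 0.15 without replicate 1 of all populations, and it lay between -0.43 and 0.23 with each library left out. Between EVP and D it was 1.00 to 1.77 and between TA and D 1.01 to 1.92 with each library left out, and the latter passed without TA replicate 5 (1.92, exact permutation test, adjusted p = 0.0476). Over all genes, 893 were called between EVP and TA, against 1919 with DESeq2, 429 without EVP replicate 2, 472 without EVP replicate 3, 560 without TA replicate 3 and 104 without replicate 1 of all populations. Array weights called 7609 in place of 4859 between EVP and D and 5054 in place of 3199 between TA and D, where quantile normalization called 2117.

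Libraries of different populations share replicate numbers, which were not taken to pair them. Deviations from the population means correlated between same-numbered libraries by 0.06 to 0.69 for EVP and D, -0.14 to 0.60 for EVP and TA and -0.004 to 0.49 for TA and D, and each number but 3 correlated best with its own. With a replicate block, 2 of the 9 genes and 14 pathway genes were called between EVP and TA. Il1r2 was the gene added (log2 fold change 1.33, limma adjusted p = 0.0305), and no other call on the 9 genes changed. For the ratio of Il1r2 to Il1r1 the block could not decide, since an exact test on so few pairs cannot pass whatever the values.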
